A study of Arabidopsis thaliana with 6 samples.

Results

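The 10 genes described here encode transcription regulators of light-grown seedling development in Arabidopsis thaliana: the basic leucine zipper (bZIP) factors HY5 and HYH and the B-box proteins BBX18 to BBX25. They were chosen by name, by their locus identifiers, and all 10 were among the 32678 genes listed in every library. Transcript levels came from RNA sequencing of polyadenylated RNA of whole seedlings kept for 5 days in white light. There were 3 libraries of csu6-2, a mutant in COP1 SUPPRESSOR 6, and 3 of Col-0, the wild-type accession. No other allele or agent is named for either genotype. The labels name neither the lesion in csu6-2, nor the locus it lies in, nor how many seedlings went into a library, and the state of the mutated gene was therefore not examined. Nothing in the labels says that the libraries came from separate growths, so p-values measure the spread between these libraries, which may be technical.

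HY5 binds promoter elements built around the letters ACGT and is a central activator of light-driven development (photomorphogenesis). HYH is its closest relative, forms heterodimers with it and shares part of its targets. Both proteins are marked for degradation in darkness by the ubiquitin ligase COP1 with its SPA partners, so transcript and protein levels of HY5 can differ. BBX18 to BBX25 carry a pair of B-box zinc fingers, through which several of them contact HY5 or COP1. BBX20, BBX21, BBX22 and BBX23 are known mainly as promoters of photomorphogenesis that act with HY5, whereas BBX18, BBX19, BBX24 and BBX25 mainly oppose it.

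Levels are in RPKM, which divides the reads of a gene by its length and by the size of the library, so they can be set against each other between genes. Each library listed the same genes, and the RPKM summed to 813352 to 836697 per library. The depth is not stated, but the spacing of the lowest values, multiplied by gene length, put it at 27.6 to 43.4 M (M, mega) counted units per library, if 1 step is 1 unit. This estimate used RefSeq gene lengths, which may differ from those behind the RPKM. The csu6-2 libraries came to 37.5, 29.6 and 32.5 M and the Col-0 libraries to 29.0, 43.4 and 27.6 M. Markers of leaf mesophyll, root, vasculature and epidermis were present, as a whole seedling should have, whereas the 4 seed storage genes summed to 0.50 to 2.87 RPKM in csu6-2 and 0.89 to 1.51 RPKM in Col-0, with CRB at 0 in all libraries. The flower genes summed to at most 4.91 RPKM in csu6-2 and 4.23 RPKM in Col-0. The 3 mesophyll markers summed to 27130 to 28389 RPKM in csu6-2 and 21398 to 26566 RPKM in Col-0, and none of them passed the test described below (was called). The 6 root markers summed to 1000.1 to 1144.7 RPKM in csu6-2 and 1245.9 to 1329.7 RPKM in Col-0, a sum made up mostly of PYK10 (1034 ± 67.6 RPKM in csu6-2 and 1250 ± 42.2 RPKM in Col-0). PYK10 and SHR were called lower (log2 changes -0.27 and -0.38), while CASP1 (0.24), EXPA7 (0.17) and SCR (-0.19) were not called and COBL9 was not tested. The 3 epidermis markers summed to 193.4 to 215.7 RPKM in csu6-2 and 252.2 to 280.9 RPKM in Col-0, and of these PDF1 was called lower (-0.70), whereas ATML1 (0.01) and FDH (-0.05) were not called. The 3 vasculature markers summed to 65.1 to 76.4 RPKM in csu6-2 and 59.8 to 66.1 RPKM in Col-0, with APL called higher (0.59) and SUC2 (0.06) and SEOR1 (0.13) not called. The part of these markers in the changes below was not tested. In whole seedlings, fewer cells of a type and less RNA per cell cannot be told apart.

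Of the 10 genes, BBX24 was higher in csu6-2 and HYH was lower. The call of HYH was lost in 8 of 13 alternative fits described below, whereas BBX24 kept its call in all 13. For the other 8 genes, HY5 included, no difference passed the test. BBX23 was nearly absent from both genotypes and was not tested, because the test took genes with at least 1 RPKM in 3 or more libraries, which 9 of the 10 genes had. Differences were tested with limma on log2(RPKM + 1) over all 18885 genes kept, two-sided, with Benjamini-Hochberg adjustment and a threshold of 0.05, and every log2 change below is the csu6-2 mean minus the Col-0 mean on that scale. At this threshold 12.9% of all tested genes were called, 3.55% as higher and 9.38% as lower, so 2 of 9 called, 1 in each direction, is not a result about the set as a whole. The median log2 change was 0.07 over the 9 tested genes and -0.07 over all tested genes. With median-of-ratios scaling the median over all tested genes was 0.00, and 1066 genes were called higher and 1110 lower, against 671 higher and 1771 lower without it.

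**Figure D1:**
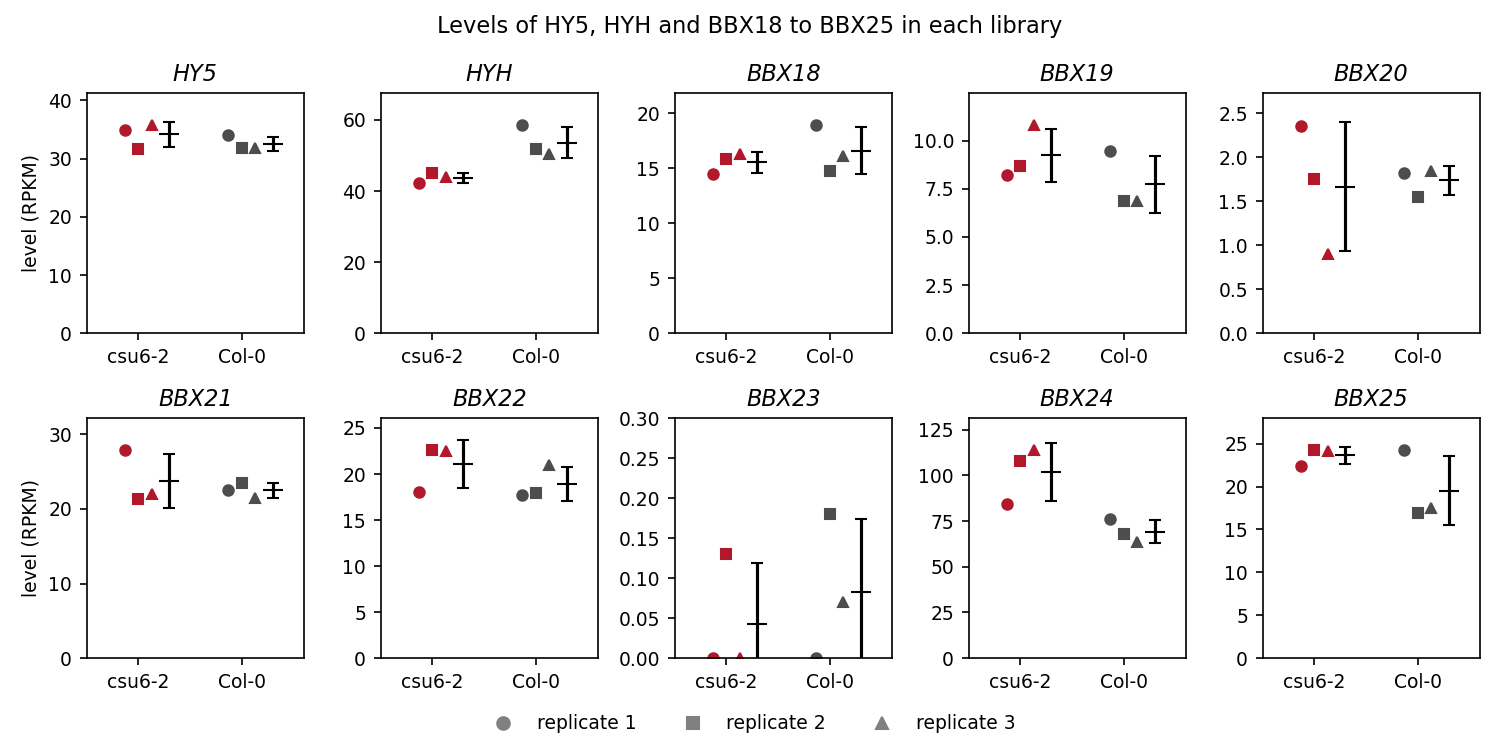
Level of each of the 10 genes in RPKM (vertical axes, which start at 0 and differ between panels) in the 3 csu6-2 and 3 Col-0 libraries, with symbols for the replicate numbers and the mean with SD at the right of each group. BBX24 in csu6-2 (84.19 to 114.13 RPKM) lies above Col-0 (63.62 to 76.11 RPKM), HYH lies below it (42.26 to 45.05 against 50.52 to 58.62 RPKM), and the groups overlap for the other 8 genes.

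The windows before the annotated starts of the called genes, HYH and BBX24, are shown beside that of HY5, as the promoter letters that bZIP factors of this family read. They are from the RefSeq annotation of TAIR10.1, 5′ to 3′ on the strand of the gene, and end at the base before the gene start. Capitals mark every ACGT.
HY5, chr5:3595074-3595273, minus strand: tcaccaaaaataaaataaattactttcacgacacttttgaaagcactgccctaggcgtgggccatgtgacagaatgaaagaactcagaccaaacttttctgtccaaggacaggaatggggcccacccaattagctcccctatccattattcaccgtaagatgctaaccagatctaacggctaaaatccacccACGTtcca
HYH, chr3:6023594-6023843, plus strand: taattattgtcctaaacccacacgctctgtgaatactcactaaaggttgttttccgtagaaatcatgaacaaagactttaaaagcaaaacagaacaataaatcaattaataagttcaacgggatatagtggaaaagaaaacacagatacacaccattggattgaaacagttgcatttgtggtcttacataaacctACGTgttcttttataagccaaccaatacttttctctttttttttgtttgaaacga
BBX24, chr1:1829984-1830233, minus strand: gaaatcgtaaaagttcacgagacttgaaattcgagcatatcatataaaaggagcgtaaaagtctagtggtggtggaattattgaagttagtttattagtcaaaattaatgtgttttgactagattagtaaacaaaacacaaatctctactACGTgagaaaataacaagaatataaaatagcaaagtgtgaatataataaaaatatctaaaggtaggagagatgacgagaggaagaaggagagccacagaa
The HY5 window is 200 bases, since the 3′ end of the neighbouring gene AT5G11270, on the same strand, lies at its edge, and the other windows are 250 bases. Each window held 1 ACGT, which begins 8 bases before the start of HY5, 55 bases before that of HYH and 100 bases before that of BBX24. In HY5 it lies in AACGTG, read on the opposite strand, the T/G-box. In both HYH and BBX24 it lies in TACGTG on the printed strand, letters that were searched for after these windows had been seen. Searched on both strands, ACGT occurs in 44.1% of all 27443 windows of 250 bases before protein-coding genes and TACGTG in 6.77%. In windows of 200 bases ACGT occurs in 38.4% and AACGTG in 6.32%. Unlike the HY5 window, the windows behind these shares were not cut at neighbouring genes, so some may hold parts of other genes. None of the 3 windows held CACGTG, the G-box, which 6.49% of windows of 250 bases and 5.64% of windows of 200 bases hold. Thus the called genes, which moved in opposite directions, held the same 6 letters, and such matches are a description of these windows only.

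HY5 (AT5G11260; chromosome 5, 3593335 to 3595073, minus strand) had 34.95, 31.69 and 35.78 RPKM in the csu6-2 libraries and 33.97, 31.82 and 31.77 RPKM in the Col-0 libraries. The genotypes overlapped, with csu6-2 replicate 2 at the level of the lower Col-0 libraries. The means were 34.1 ± 2.16 RPKM in csu6-2 and 32.5 ± 1.26 RPKM in Col-0 (SD, n = 3 each). The log2 change was 0.07 (SE 0.08, limma adjusted p = 0.618), and its 95% interval ran from -0.10 to 0.23.

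HYH (AT3G17609; chromosome 3, 6023844 to 6024710, plus strand) had 42.26, 45.05 and 44.06 RPKM in csu6-2 and 58.62, 51.73 and 50.52 RPKM in Col-0. All 3 mutant libraries lay below all 3 wild-type libraries, and Col-0 replicate 1 was the highest. The means were 43.8 ± 1.41 RPKM in csu6-2 and 53.6 ± 4.37 RPKM in Col-0, with a log2 change of -0.28 (SE 0.08, limma adjusted p = 0.0285; 95% interval -0.45 to -0.12). Among all tested genes the groups did not overlap in 32.0%, with csu6-2 higher in 9.04% and lower in 23.0%. The call ended when most single libraries were left out: limma gave adjusted p = 0.0752, 0.0665 and 0.0665 without csu6-2 replicates 1, 2 and 3, and 0.107 and 0.0576 without Col-0 replicates 1 and 2. It also ended with median-of-ratios scaling (log2 change -0.21, adjusted p = 0.119). RBL14, the next gene downstream, had a log2 change of 0.07 (adjusted p = 0.698), and IAA31 upstream was below the level for testing.

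Among the B-box genes that act with HY5, none of the 3 tested passed. BBX21 (AT1G75540; chromosome 1, 28365824 to 28367738, plus strand), which binds the HY5 promoter and raises HY5 activity, had 27.95, 21.40 and 21.99 RPKM in csu6-2 and 22.61, 23.50 and 21.48 RPKM in Col-0. One mutant library, replicate 1, stood above the other 5, which lay within 21.40 to 23.50 RPKM. Its log2 change was 0.07 (SE 0.10, limma adjusted p = 0.712; 95% interval -0.15 to 0.28), and -0.05 without csu6-2 replicate 1 (adjusted p = 0.723). BBX22 (AT1G78600, LZF1 in RefSeq; chromosome 1, 29566863 to 29568931, plus strand), a HY5 partner that COP1 degrades, had 18.07, 22.64 and 22.48 RPKM in csu6-2 and 17.72, 17.92 and 21.00 RPKM in Col-0. Its groups overlapped, with csu6-2 replicate 1 among the wild-type values, and its log2 change was 0.15 (SE 0.10, limma adjusted p = 0.375; 95% interval -0.07 to 0.37).

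The other promoters of photomorphogenesis in the set were at low levels. BBX20 (AT4G39070, BZS1 in RefSeq; chromosome 4, 18204631 to 18206684, minus strand), also known from brassinosteroid responses, had 2.35, 1.75 and 0.90 RPKM in csu6-2 and 1.82, 1.55 and 1.84 RPKM in Col-0. The mutant libraries spanned the wild-type values on both sides, so the spread of BBX20 was wider in csu6-2 (SD 0.729 RPKM) than in Col-0 (SD 0.162 RPKM, n = 3 each). The log2 change was -0.07 (SE 0.18, limma adjusted p = 0.836), with the widest 95% interval of the 9 genes, -0.47 to 0.32. Without csu6-2 replicate 3 it was 0.15 (adjusted p = 0.625). BBX20 overlaps AT4G39060 on the opposite strand by 4 bases, and that gene had at most 0.03 RPKM in any library. BBX23 (AT4G10240; chromosome 4, 6368829 to 6369950, minus strand) was listed at 0, 0.13 and 0 RPKM in csu6-2 and at 0, 0.18 and 0.07 RPKM in Col-0. At the depths estimated above these values come to about 4 counted units in csu6-2 replicate 2 and to about 8 and 2 in Col-0 replicates 2 and 3, so a difference in BBX23 was not detectable at this depth.

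BBX24 and BBX25 are close relatives that oppose HY5 activity by binding the HY5 protein. BBX24 (AT1G06040, STO in RefSeq; chromosome 1, 1828340 to 1829983, minus strand) had 84.19, 107.80 and 114.13 RPKM in csu6-2 and 76.11, 67.82 and 63.62 RPKM in Col-0. All mutant libraries were above all wild-type libraries, although csu6-2 replicate 1 was nearer to Col-0 replicate 1 than to the other mutant libraries. The means were 102.04 ± 15.8 RPKM in csu6-2 and 69.2 ± 6.36 RPKM in Col-0, a ratio of 1.47, with a log2 change of 0.55 (SE 0.11, limma adjusted p = 0.00972; 95% interval 0.30 to 0.79). It passed with any 1 library left out, with adjusted p-values of 0.00168 to 0.0499. The upper end is at the threshold: without csu6-2 replicate 2 the adjusted p was 0.0499 and without Col-0 replicate 2 it was 0.0498. A RefSeq locus of 344 bases, AT1G06045, lies inside BBX24 on the opposite strand and is not among the genes listed in the libraries. The strand setting of the counting is not given, so reads of the 2 loci cannot be told apart.

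BBX25 (AT2G31380, STH in RefSeq; chromosome 2, 13381767 to 13383470, plus strand) had 22.42, 24.30 and 24.15 RPKM in csu6-2 and 24.24, 16.89 and 17.50 RPKM in Col-0. Col-0 replicate 1 lay among the mutant values, and the other wild-type libraries lay below them. The means were 23.6 ± 1.04 RPKM in csu6-2 and 19.5 ± 4.08 RPKM in Col-0, with a log2 change of 0.28 (SE 0.12, limma adjusted p = 0.153; 95% interval 0.02 to 0.54). The outcome turned on that library: without Col-0 replicate 1 the log2 change was 0.44 (adjusted p = 0.00689), and without any other library the adjusted p was at least 0.178. BBX25 overlaps AT2G31390 on the opposite strand by 48 bases, a gene of 55.04 ± 4.27 RPKM in csu6-2 and 47.4 ± 2.26 RPKM in Col-0 (log2 change 0.21, adjusted p = 0.0954).

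BBX18 and BBX19, the other pair that opposes photomorphogenesis, did not pass. BBX18 (AT2G21320; chromosome 2, 9126263 to 9127987, plus strand) had 14.46, 15.83 and 16.33 RPKM in csu6-2 and 18.92, 14.75 and 16.14 RPKM in Col-0. The genotypes overlapped, and the highest value was that of Col-0 replicate 1. Its log2 change was -0.08 (SE 0.10, limma adjusted p = 0.623; 95% interval -0.29 to 0.12), and 0.01 without Col-0 replicate 1 (adjusted p = 0.973). BBX19 (AT4G38960; chromosome 4, 18160903 to 18163341, plus strand), which contacts COP1 and the clock protein ELF3, had 8.19, 8.70 and 10.80 RPKM in csu6-2 and 9.45, 6.87 and 6.87 RPKM in Col-0. Here Col-0 replicate 1 again stood among the mutant values, and the log2 change was 0.23 (SE 0.13, limma adjusted p = 0.27; 95% interval -0.05 to 0.52). Col-0 replicate 1 was thus the highest wild-type library for HY5, HYH, BBX18, BBX19, BBX24 and BBX25.

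**Figure D2:**
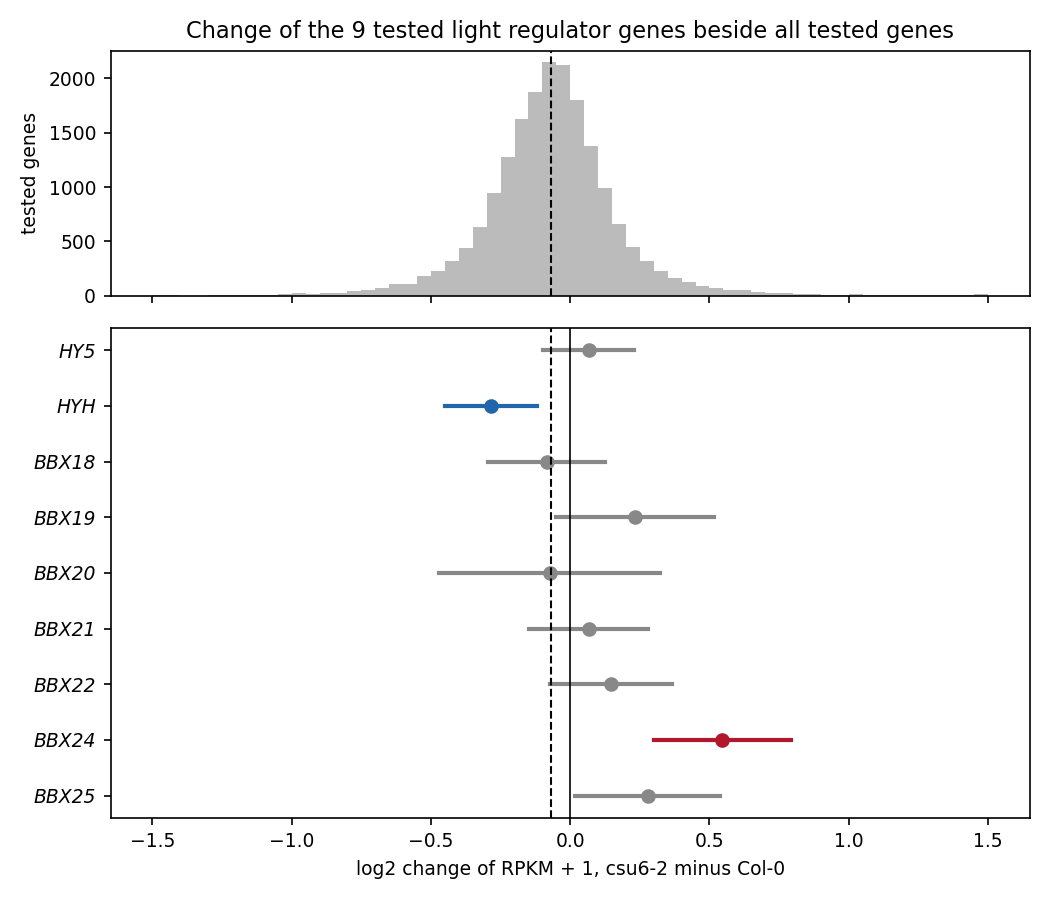
Upper panel, number of tested genes by log2 change (csu6-2 minus Col-0, RPKM + 1), with changes beyond the axis counted in the end bins; lower panel, log2 change of the 9 tested genes with its 95% interval, red for called higher, blue for called lower and grey for not past the threshold. The dashed line is the median of all tested genes (-0.07). The intervals of BBX24 (0.30 to 0.79) and HYH (-0.45 to -0.12) lie on opposite sides of 0.

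In RPKM, BBX24 was the most abundant of the 10 transcripts in both genotypes, followed by HYH, HY5, BBX21, BBX25, BBX22, BBX18, BBX19, BBX20 and BBX23. The order of the means was the same in csu6-2 and in Col-0. BBX24, HYH and HY5 did not overlap each other within either genotype. BBX21 overlapped BBX25, and BBX25 overlapped BBX22, in csu6-2 and in Col-0 alike, so their order does not hold beyond the spread of the libraries. BBX22 and BBX18 overlapped in Col-0, but not in csu6-2.

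The 2 most abundant genes took different shares of the set in the 2 genotypes. BBX24 took 33.04, 38.60 and 39.27% of the summed RPKM of the 10 genes in csu6-2, against 28.89, 29.10 and 27.56% in Col-0. HYH took 16.58, 16.13 and 15.16% in csu6-2, against 22.25, 22.20 and 21.89% in Col-0. For both genes the shares of the genotypes did not overlap, and the Col-0 shares of HYH lay closer together (SD 0.196 percentage points) than its levels did. HY5 held 12.5 ± 1.19% in csu6-2 and 13.4 ± 0.474% in Col-0 (SD, n = 3 each), with overlap. A share falls when another gene of the set rises, so these shares restate the levels and are not separate evidence.

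**Figure D3:**
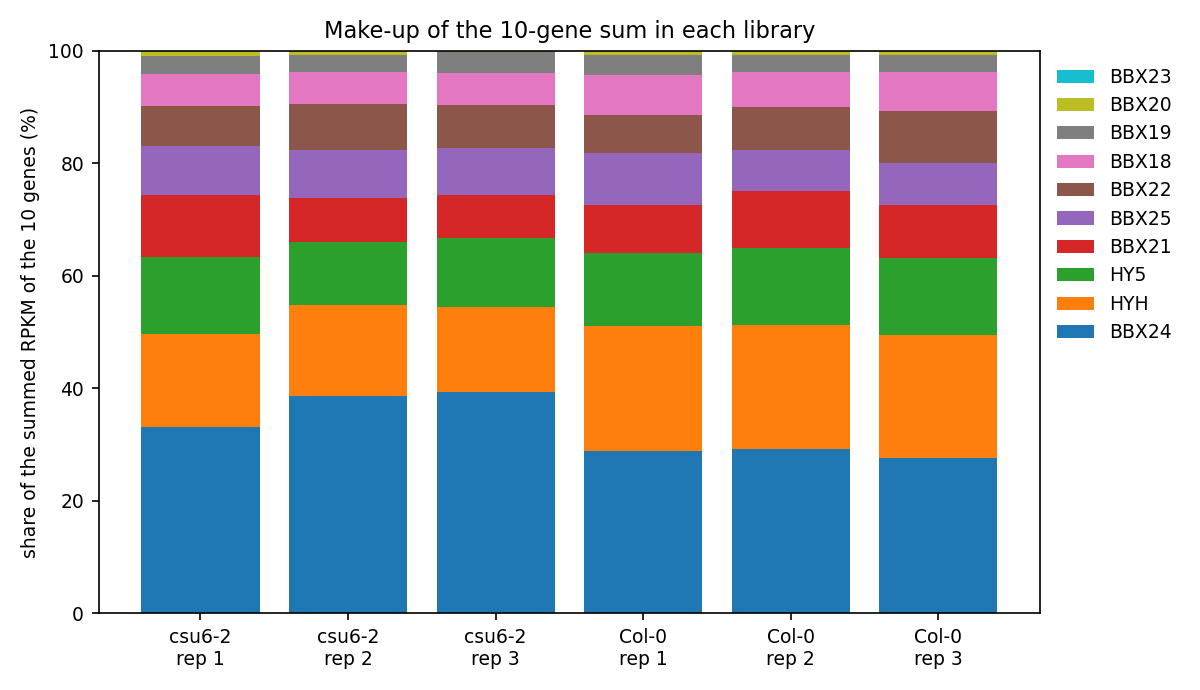
Share of each gene in the summed RPKM of the 10 genes (vertical axis, percent) in the 3 csu6-2 and 3 Col-0 libraries. The lowest block, BBX24, covers 33.04 to 39.27% in csu6-2 and 27.56 to 29.10% in Col-0, and the block above it, HYH, covers 15.16 to 16.58% in csu6-2 and 21.89 to 22.25% in Col-0.

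Ratios of paired genes within a library do not depend on how the library was scaled, apart from the added 1. The log2 ratio of HY5 to HYH was -0.27, -0.49 and -0.29 in csu6-2 and -0.77, -0.68 and -0.65 in Col-0, so HY5 was nearer to the level of HYH in every mutant library. The difference was 0.35, with p = 0.1 in an exact two-sided permutation test, the smallest p that 3 libraries against 3 can give (0.25 adjusted over the 5 ratios). The log2 ratio of BBX18 to BBX19 was 0.75, 0.79 and 0.55 in csu6-2 and 0.93, 1.00 and 1.12 in Col-0, a difference of -0.32 (exact permutation p = 0.1, 0.25 adjusted). These genotypes did not overlap either, although neither gene passed alone. Among single tested genes 32.0% did not overlap, and the share among other gene pairs was not computed. The ratios restate the levels given above and are not separate evidence. The log2 ratio of BBX24 to BBX25 averaged 2.05 ± 0.17 in csu6-2 and 1.79 ± 0.17 in Col-0 (SD, n = 3 each), and the groups overlapped (difference 0.27, exact permutation p = 0.2, 0.25 adjusted). An unequal change of BBX24 and BBX25 was therefore not shown. The ratio of BBX20 to BBX21 differed by -0.14 (exact permutation p = 0.6) and that of BBX22 to BBX23 by 0.20 (exact permutation p = 0.2). The second depends on the added value, since BBX23 was near 0: with 0.1 added in place of 1 it was 0.50 (exact permutation p = 0.4). Without csu6-2 replicate 3 the difference in the ratio of BBX20 to BBX21 was 0.04.

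**Figure D4:**
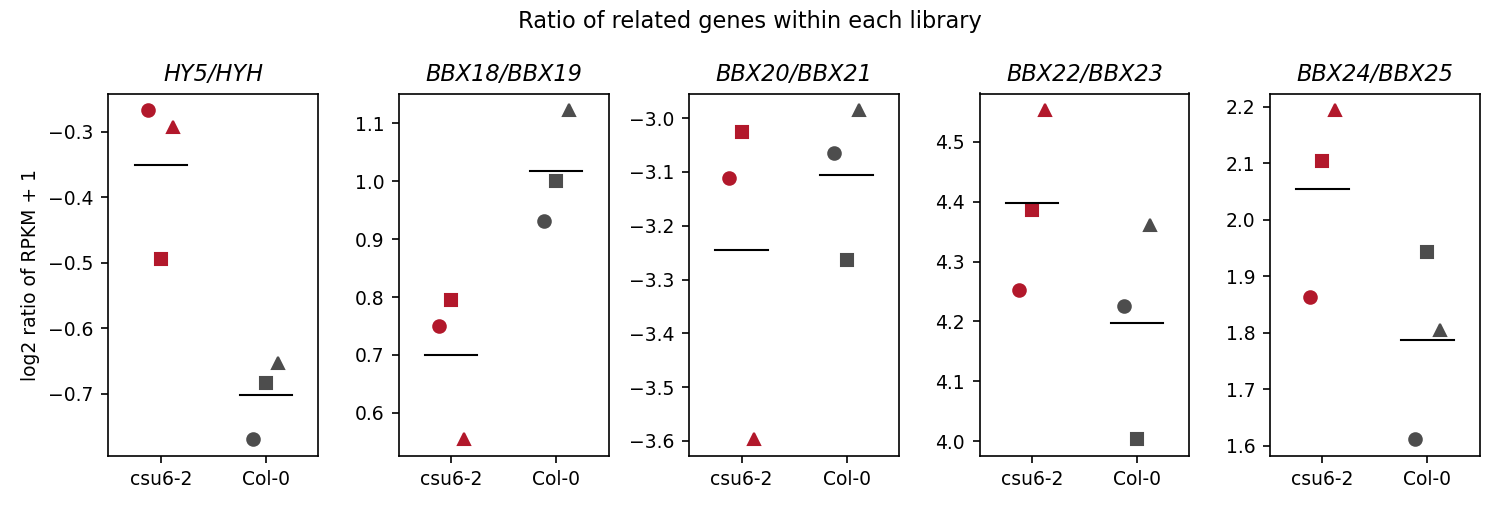
Log2 ratio of RPKM + 1 of 5 gene pairs within each library (vertical axes differ between panels and do not start at 0), with symbols for replicates 1 (circle), 2 (square) and 3 (triangle) and a line at the group mean. HY5/HYH is higher in all csu6-2 libraries (-0.49 to -0.27) than in Col-0 (-0.77 to -0.65), BBX18/BBX19 is lower (0.55 to 0.79 against 0.93 to 1.12), and the other 3 ratios overlap.

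Of the 24 B-box genes outside this set, 20 were tested, 2 were higher and 2 lower, with a median log2 change of -0.12, beside 3.55% higher, 9.38% lower and a median of -0.07 over all tested genes. The count of lower genes is near that share. The largest change in this list was that of BBX28, which did not pass. It had 29.1 ± 7.76 RPKM in csu6-2 and 14.4 ± 4.26 RPKM in Col-0, without overlap (log2 change 0.97, limma adjusted p = 0.0878). BBX3 and BBX16 (0.65 and 0.62, adjusted p = 0.212 and 0.205) overlapped and did not pass either. The groups did not overlap in 3 genes higher and 5 lower, beside 9.04% and 23.0% of all tested genes. BBX6, also called COL5, had 24.9 ± 5.0 RPKM in csu6-2 and 16.2 ± 2.53 RPKM in Col-0 (log2 change 0.58, limma adjusted p = 0.037), and BBX27 had 20.9 ± 1.33 RPKM in csu6-2 and 15.3 ± 2.86 RPKM in Col-0 (0.44, adjusted p = 0.0307). BBX7, also called COL9 and known as a repressor of flowering, had 17.1 ± 2.44 RPKM in csu6-2 and 23.8 ± 1.84 RPKM in Col-0 (-0.46, adjusted p = 0.0102). BBX13 had 11.03 ± 1.13 RPKM in csu6-2 and 14.5 ± 1.4 RPKM in Col-0 (-0.37, adjusted p = 0.0284). None of the 4 calls held with every library left out in turn. Leaving out csu6-2 replicate 2 took BBX7 to adjusted p = 0.0515. BBX6 and BBX13 each lost the call when csu6-2 replicate 2 or 3 or Col-0 replicate 2 or 3 was dropped (adjusted p = 0.118, 0.0672, 0.133 and 0.127 for BBX6 and 0.115, 0.0542, 0.1 and 0.0897 for BBX13). BBX27 did not pass without any csu6-2 replicate (0.0637, 0.121 and 0.0627) or without Col-0 replicates 2 and 3 (0.0697 and 0.0701), and BBX13 did not with median-of-ratios scaling (adjusted p = 0.0625). In the set itself BBX24 kept its call in all 6 such fits.

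Among 13 tested genes that control the stability of HY5, which encode COP1, its SPA partners, the DET1 complex, CUL4 and COP9 signalosome subunits, 1 was higher and 0 were lower, with a median log2 change of -0.03. Over all tested genes 12.9% were called, so a count of 1 in 13 is near the background. COP1 had 26.15, 22.70 and 23.59 RPKM in csu6-2 and 25.25, 25.96 and 25.59 RPKM in Col-0, with overlap (log2 change -0.08, SE 0.08, limma adjusted p = 0.529). SPA2, a COP1 partner that acts mainly in darkness, had 10.14, 9.01 and 9.44 RPKM in csu6-2 and 7.40, 6.64 and 6.52 RPKM in Col-0. The mutant libraries were all above the wild-type ones (log2 change 0.42, SE 0.09, limma adjusted p = 0.00989), and the call held with any library left out (highest adjusted p 0.0442). Its relative SPA3 had 21.3 ± 2.46 RPKM in csu6-2 and 26.1 ± 1.42 RPKM in Col-0, without overlap, and did not pass (log2 change -0.29, adjusted p = 0.0536).

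Of 10 upstream regulators and partners of HY5, 2 were higher in csu6-2 and 0 lower (3 and 0 with median-of-ratios scaling, which added GBF2), with a median log2 change of -0.03. Over all tested genes 3.55% were higher and 9.38% lower (5.65% and 5.88% with that scaling). The 2 higher genes encode bZIP factors that bind the G-box. The other bZIP genes of the list, GBF2, GBF3 and BZIP68, were not called without that scaling. Their log2 changes were 0.20, 0.09 and -0.07 (limma adjusted p = 0.141, 0.574 and 0.702). BZIP16 had 22.26, 19.42 and 24.00 RPKM in csu6-2 and 11.10, 10.66 and 11.41 RPKM in Col-0, with a wide gap between the genotypes and a log2 change of 0.92 (SE 0.09, limma adjusted p = 6.06e-05). GBF1, which can form dimers with HY5 and HYH, had 31.04, 31.35 and 31.47 RPKM in csu6-2 and 26.10, 23.94 and 22.38 RPKM in Col-0. Its mutant values lay within 1 RPKM of each other and above every wild-type value (log2 change 0.36, SE 0.08, limma adjusted p = 0.00865). Both calls held with any library left out. FHY3 and FAR1, which activate light signalling upstream of HY5, had log2 changes of 0.02 and -0.11 (adjusted p = 0.898 and 0.464). MYC2 and UVR8 were lower without overlap and did not pass (-0.27 and -0.11, limma adjusted p = 0.0541 and 0.316). In this list the groups did not overlap in 3 genes higher and 2 lower, beside 9.04% and 23.0% of all tested genes.

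Of 28 genes known as targets of HY5, 24 were tested, 5 were higher and 0 lower, with a median log2 change of 0.21 (8 higher and 0 lower with median-of-ratios scaling, which added CHS, DFR and LDOX). The shares over all tested genes were 3.55% higher and 9.38% lower, and 5.65% and 5.88% with that scaling. ELIP1, an early light-induced protein of the chloroplast, had 32.46, 34.63 and 37.66 RPKM in csu6-2 and 16.81, 15.39 and 18.39 RPKM in Col-0 (log2 change 1.01, limma adjusted p = 2.2e-05). Its relative ELIP2 had a log2 change of 0.89 (adjusted p = 0.000132), CHLH, a magnesium chelatase subunit of chlorophyll synthesis, one of 0.59 (adjusted p = 0.00266), and IAA14, a repressor of auxin responses, one of 0.41 (adjusted p = 0.0112). These 4 passed with any library left out. The fifth, MYB12, a regulator of flavonol synthesis, had a log2 change of 0.35 (adjusted p = 0.0408). MYB12 was named because the count of called genes is small, and its call survived the loss of csu6-2 replicate 2 but of no other library: without csu6-2 replicates 1 and 3 the adjusted p was 0.0932 and 0.145, and without Col-0 replicates 1, 2 and 3 it was 0.13, 0.091 and 0.0503. The flavonoid genes CHS, DFR and LDOX had log2 changes of 0.25, 0.61 and 0.78 (adjusted p = 0.0717, 0.0522 and 0.0508), and CHI, FLS1 and TT7 of the same pathway had 0.04, 0.15 and 0.31 (adjusted p = 0.824, 0.255 and 0.204). Its regulators MYB111 and MYB75 had negative log2 changes that did not pass either (-0.48 and -0.28, adjusted p = 0.0865 and 0.183), nor did the nitrate reductase gene NIA2 (-0.48, adjusted p = 0.125). F3H was listed at no more than 0.07 RPKM in any library, and AT3G51238, which overlaps it on the opposite strand, at 0 in all 6. How reads in the overlap were counted is not given, so these values do not show that the F3H transcript was absent. The list holds targets reported for HY5 in general, and a rise of a transcript does not tell which factor acted on it. It was chosen with earlier results of these data known, so its counts and median are a description and not a test of HY5 targets.

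**Figure D5:**
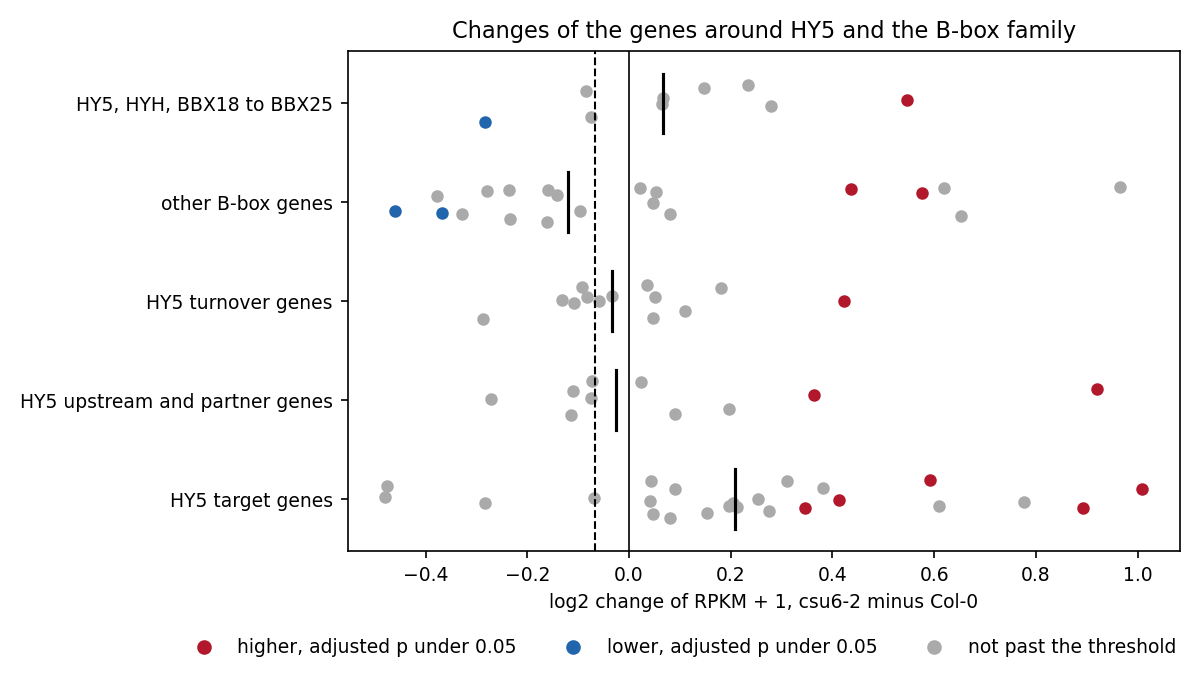
Log2 change (horizontal axis, csu6-2 minus Col-0, RPKM + 1) of each tested gene in 5 groups of genes, with called genes in red (higher) and blue (lower), a black bar at the median of each group and a dashed line at the median of all tested genes (-0.07). The HY5 target genes have the highest median (0.21) and the other B-box genes have the lowest (-0.12). No gene is called lower among the HY5 target genes, the HY5 turnover genes or the HY5 upstream and partner genes. The lists were chosen with earlier results of these data known.

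The genes whose levels over the 6 libraries were most like those of HY5, HYH and BBX24 were found by Pearson correlation of log2(RPKM + 1) among 13822 genes with a mean of at least 5 RPKM. For BBX24 they were HB40, a homeobox gene (r = 0.996), CAM9, a calmodulin-like gene (r = 0.993), and UBC5, a ubiquitin-conjugating enzyme gene (r = 0.993). CAM9 had 58.90, 74.47 and 75.18 RPKM in csu6-2 and 52.90, 48.79 and 48.46 RPKM in Col-0, the same order of libraries within Col-0 and with csu6-2 replicate 1 again lowest of the mutant. For HYH they were AT4G15520 (r = 0.986), AT1G75810 (r = 0.984) and CRS1, a chloroplast splicing factor gene (r = 0.981), which had 10.3 ± 0.0819 RPKM in csu6-2 and 14.8 ± 1.84 RPKM in Col-0. For HY5 they were AT3G01720 (r = 0.987), AT5G54870 (r = 0.986) and NAC3 (r = 0.983), none of which passed the test. Of those named for BBX24 and HYH, CAM9, UBC5 and CRS1 passed. HB40, AT4G15520 and AT1G75810 did not (limma adjusted p = 0.256, 0.269 and 0.057). With 6 libraries that share their scaling and so many genes searched, correlations of this size are a description only, and those for BBX24 and HYH follow in part from the difference between the genotypes.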

How the data were processed

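Polyadenylated RNA of whole seedlings was sequenced in 3 csu6-2 and 3 Col-0 libraries, per the labels' protocols. The authors deposited 1 table per library with an RPKM value for each of 32678 genes. The tools HISAT2 and edgeR 3.0.8 and the build TAIR10 are listed, per the submitters' processing notes, without their roles. The counting program, gene lengths, strand setting and filters are likewise not given in the sources used here. RPKM was read as the unit because totals differed between libraries (coefficient of variation 0.975%) and those of RPKM times exon length less so (0.274%, over 31904 identifiers matched by locus tag to RefSeq TAIR10.1, which gave coordinates and sequences). If read pairs were counted, the values are FPKM.

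Genes with at least 1 RPKM in 3 or more libraries (18885) were compared with limma 3.58.1 in R 4.3.3 on log2(RPKM + 1), with trend and robust variance (statmod 1.5.0), unpaired, with Benjamini-Hochberg adjustment. Fold changes of low genes are understated on this scale, and a rise of abundant transcripts lowers the RPKM of others. The fit was tested on simulated data. Each planted change was larger than that of any tested gene among the 10, and all lay in genes of higher level than BBX20. The recovery of smaller changes, or of changes in such low genes, was therefore not simulated. Most changed genes were recovered with the right sign. The share of false calls was near the threshold when variances were drawn from the fitted prior. That share was above the threshold when each gene kept limma's estimate of its variance, so calls close to the threshold are the less certain ones. The simulated noise was independent between genes, and fewer genes were changed than were called in the data. The share of false calls in the data themselves was therefore not measured. The genes, the lists and the tests were chosen with earlier results of these data known. Named genes are the 10 genes, COP1, the 4 called genes of lowest adjusted p per list and the 3 most correlated genes for HY5, HYH and BBX24. Other genes were named after their values were seen. Alternatives were other scaling, pseudocount, filters and variance model, a replicate block and leaving out each library.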

Additional observations from a re-analysis of the deposited data

How the results depend on the processing

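Over 13 alternatives, BBX24 stayed higher and past the threshold in all 13 (log2 change 0.46 to 0.68 with a library left out, adjusted p 0.00168 to 0.0499 over all alternatives), and HY5, BBX19 and BBX22 kept their direction and stayed short of it. HYH stayed lower in all 13 (-0.32 to -0.22 with a library left out) but missed the threshold under median-of-ratios scaling (-0.21, adjusted p = 0.119), without a low-value filter (-0.28, adjusted p = 0.0556) or without trend and robust variance (-0.28, adjusted p = 0.0697), which leaves 1 of the 10 genes called under each of these. With a library left out, 1 to 2 of the 10 genes and 1279 to 2324 of all tested genes were called, with 1279 when Col-0 replicate 2 was dropped, and 1394 and 1516 when csu6-2 replicates 2 and 3 were. Over the same fits, the log2 change ran from -0.16 to 0.0079 for BBX18, -0.26 to 0.15 for BBX20, -0.051 to 0.13 for BBX21 and 0.19 to 0.44 for BBX25, and the difference in the ratio of BBX20 to BBX21 from -0.25 to 0.036. The causes were not tested. BBX20 gave no value at a minimum of 5 RPKM.

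The replicate numbers share no stated batch, and deviations of same-numbered libraries correlated at 0.20, 0.05 and 0.22, with csu6-2 replicate 2 more like Col-0 replicate 3 (0.10) than Col-0 replicate 2. With the replicate block, 2969 genes were called (813 higher, 2156 lower) and the same 2 of the 10 genes, BBX24 with adjusted p = 0.0496 and HYH with 0.0218. Of the other called genes named from the lists, BBX6 alone missed the threshold with the block (adjusted p = 0.104). For the ratios, the block gave exact p = 0.25 for HY5/HYH, the smallest it allows. Depth is known only as an estimate, so counting error was not computed, and BBX20 and BBX23 are the genes that depth limits most.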
